A study of Mus musculus with 2 samples.

Results

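Prf1, Gzmm, Ccl3, Ccl4 and Ccl5 are 5 genes of cytotoxic lymphocytes, 2 for proteins of the cytotoxic granule and 3 for secreted CC chemokines. They were taken by gene symbol from the authors' deposited table of probe sets that differed at least 2-fold between the 2 arrays of the series, which names 791 genes. That difference is therefore what brought them into the table, and it is described here without a test. One array measured RNA of CD8 single-positive thymocytes from CIITAtgpIV-/- mice and the other RNA of the same population from B6 wild-type mice. Both groups were 8 weeks old, both are labelled with the B6 background, and thymocytes were separated by magnetic sorting. The genotype name joins a CIITA transgene with loss of promoter IV of Ciita, and the promoter that drives the transgene is not given in the sources used here. Each RNA came from 2 to 4 thymuses of 1 genotype in 1 pool, so no difference has a replicate check, and it is the small number of arrays that limits precision.

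Killer lymphocytes store perforin and granzymes in granules and release them at the contact with a target cell. Perforin opens the target's membrane, and granzymes, a family of serine proteases, then cleave proteins inside it. The same lymphocytes secrete the chemokines CCL3, CCL4 and CCL5, which attract other leukocytes through CC chemokine receptors. CD8 single-positive thymocytes that leave the thymus as naive T cells are known for little of this machinery, which is acquired with activation or memory differentiation.

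The sequences shown are those before the transcription starts of Prf1, Gzmm and Ccl3, the genes whose promoters could be read. They are from RefSeq on GRCm38.p6, whose promoter table matched 3 of the 5 genes, and they read 5′ to 3′ on the strand of the gene. Capitals mark TGTGGT, the core bound by RUNX proteins, and GGAAGT, an ETS core, each on either strand. The Prf1 stretch (chr10:61297586-61297750, plus strand) ends before the start of the RefSeq gene, the Gzmm stretch (chr10:79688770-79689019, plus strand) lies before the first of its 2 starts in the table, and the Ccl3 stretch is chr11:83649379-83649628 on the minus strand.
Prf1: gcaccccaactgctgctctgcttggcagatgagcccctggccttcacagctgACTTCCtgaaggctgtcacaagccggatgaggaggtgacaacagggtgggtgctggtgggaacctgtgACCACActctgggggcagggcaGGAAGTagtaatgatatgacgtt
Gzmm: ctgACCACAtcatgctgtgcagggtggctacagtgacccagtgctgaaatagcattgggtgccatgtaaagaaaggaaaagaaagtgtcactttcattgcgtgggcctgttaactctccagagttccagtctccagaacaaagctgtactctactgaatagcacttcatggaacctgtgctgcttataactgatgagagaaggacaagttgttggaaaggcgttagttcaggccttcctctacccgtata
Ccl3: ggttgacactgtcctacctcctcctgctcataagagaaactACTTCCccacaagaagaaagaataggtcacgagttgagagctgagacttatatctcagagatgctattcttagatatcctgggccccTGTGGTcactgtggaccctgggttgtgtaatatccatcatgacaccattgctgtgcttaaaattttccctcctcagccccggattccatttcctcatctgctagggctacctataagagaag

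The RUNX core lay 130 bases before the table's start site in Prf1, 247 bases before it in Gzmm and 122 bases before it in Ccl3. It was present in 14.0% of the 32851 promoters of the same 250 bases in the table, and the window of the other Gzmm start lacked these letters. The ETS core lay 198 and 108 bases before the start in Prf1 and 209 bases before it in Ccl3, and 19.7% of all promoters held it. A T-box half-site, AGGTGT, lay 24 bases before the table's start site in Prf1 and was in 11.8% of promoters. It is outside the stretch printed above, since it lies past the start of the RefSeq gene. No match to AGGTGTGA, the longer T-box site that contains that half-site, to the palindromic STAT site, to the consensus NF-kappaB site or its variant GGGANTTCC, to TGANTCA (AP-1) or to TATAAA was in these windows, which says only that those letters are not there. In all, 9 motifs were searched, and only motifs with a match are marked. Ccl4, which is also higher, and Ccl5, which is lower, had no promoter to scan. The motifs therefore cannot be set against the direction of the differences. These matches are descriptions of sequence, and binding was not measured.

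All 5 genes have 1 probe set each, and 4 were higher and 1 was lower in CIITAtgpIV-/- at the 2-fold threshold. Of the 28560 probe sets in the range of identifiers that the authors listed from, 3.51% passed 2-fold, 0.977% as higher and 2.54% as lower. Since the 5 genes were selected on this contrast, nothing is read from their count. Log2 signals are RMA values (robust multi-array average, a background-corrected summary of the probes of a probe set), and levels of different genes are not compared because each probe set binds with its own strength. An expression floor was set at a log2 signal of 5.42: the brighter signal of each probe set was taken, and the floor is the median of these over the 35556 probe sets. It was passed by all 5 genes in at least 1 array. In RNA of a whole sorted population, fewer cells of a type and less RNA per cell cannot be told apart.

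**Figure D1:**
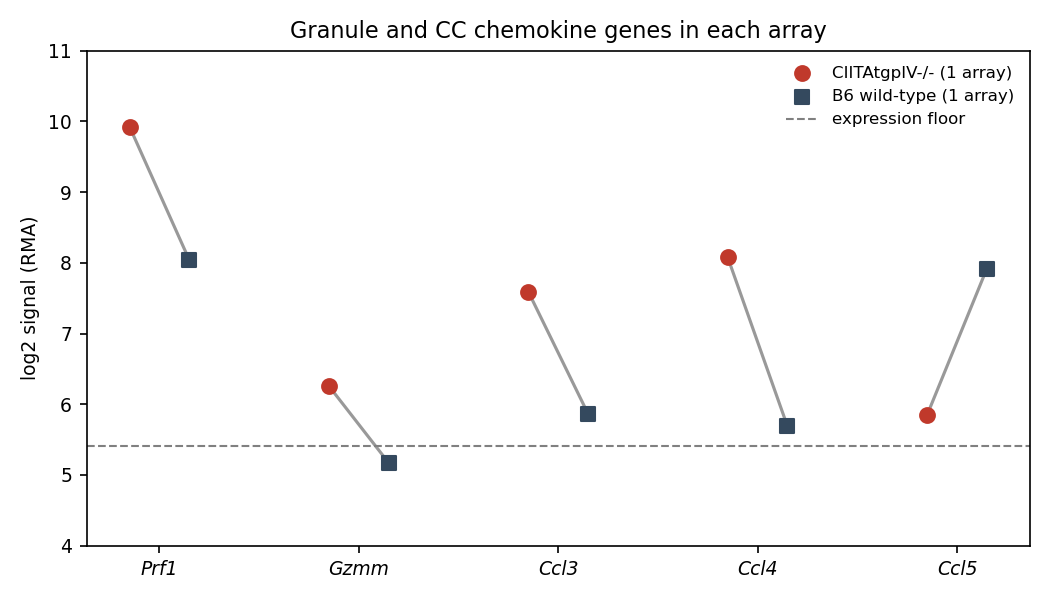
Log2 signal (vertical axis) of each of the 5 genes in the CIITAtgpIV-/- array (red circles) and the B6 wild-type array (dark squares), 1 array each, with lines joining both signals of a gene and a dashed line at the floor of 5.42. The CIITAtgpIV-/- signal is the higher one for Prf1, Gzmm, Ccl3 and Ccl4 and the lower one for Ccl5, and only the B6 wild-type signal of Gzmm lies below the floor.

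Prf1, which encodes perforin, had a log2 signal of 9.93 in the CIITAtgpIV-/- array, against 8.04 in the B6 wild-type array. It was thus 3.70-fold higher in CIITAtgpIV-/-, a difference of 1.89 on the log2 scale, and its signal was well above the floor in both arrays. The difference ranked 52nd from the top among the 28560 probe sets. In the decile of mean signal that holds Prf1, the robust standard deviation (SD, from the median absolute deviation) of the difference was 0.33, and 4.94% of probe sets passed 2-fold. The authors' deposited table places Prf1 (probe set 10363475) on chromosome 10 from 60760582 to 60767058 on the plus strand, with 27 probes, of which 23 match its transcript.

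Gzmm, which encodes granzyme M, a protease that cuts after methionine and is best known from NK cells, had the difference closest to the threshold. Its log2 signal was 6.26 in the CIITAtgpIV-/- array and 5.17 in the B6 wild-type array, where it was below the floor. It was 2.13-fold higher, a difference of 1.09 that ranked 232nd from the top. The robust SD in its decile of signal was 0.26, and 5.74% of probe sets there passed 2-fold. With each array centred on its median the difference was 0.99, just under 2-fold. No other background correction was tried on it. The authors' deposited table places Gzmm (probe set 10364460) on chromosome 10 from 79151765 to 79158005 on the plus strand, with 27 of 31 probes matching its transcript.

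Ccl4 encodes a chemokine that activated T cells secrete, and it had the largest difference of the 5 genes. Its log2 signal was 8.08 in the CIITAtgpIV-/- array, against 5.69 in the B6 wild-type array, close above the floor. It was 5.25-fold higher, a difference of 2.39 that ranked 33rd from the top. The authors' deposited table places Ccl4 (probe set 10379721) on chromosome 11 from 83476089 to 83478182 on the plus strand, and all 27 probes match its transcript.

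Ccl3, whose product is another chemokine of activated T cells, was higher as well. Its log2 signal was 7.59 in the CIITAtgpIV-/- array and 5.86 in the B6 wild-type array. It was 3.32-fold higher, a difference of 1.73, which ranked 66th from the top. The authors' deposited table places Ccl3 (probe set 10389231) on chromosome 11 from 83461346 to 83462859 on the minus strand, and all 28 probes match its transcript.

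Ccl5 encodes the chemokine also called RANTES, which memory CD8 T cells and NK cells carry as ready-made RNA. It ran opposite to the other 4 genes, with a log2 signal of 5.85 in the CIITAtgpIV-/- array, near the floor, against 7.92 in the B6 wild-type array. It was 4.21-fold lower in CIITAtgpIV-/-, a difference of -2.07. Of the 28560 probe sets, 212 had a more negative difference. Ccl3, Ccl4 and Ccl5 lie in the same decile of mean signal, where the robust SD of the difference was 0.34 and 8.26% of probe sets passed 2-fold. In that decile 0.210% of probe sets were as high in difference as Ccl4, 0.455% as high as Ccl3, and 2.66% were as low as Ccl5, each count including the gene itself. Low shares follow from the selection of these genes on this difference, so nothing is read from them. The robust SD is a spread across probe sets, not an error of measurement. The authors' deposited table places Ccl5 (probe set 10389207) on chromosome 11 from 83339280 to 83344020 on the minus strand, with all 30 probes matching its transcript.

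**Figure D2:**
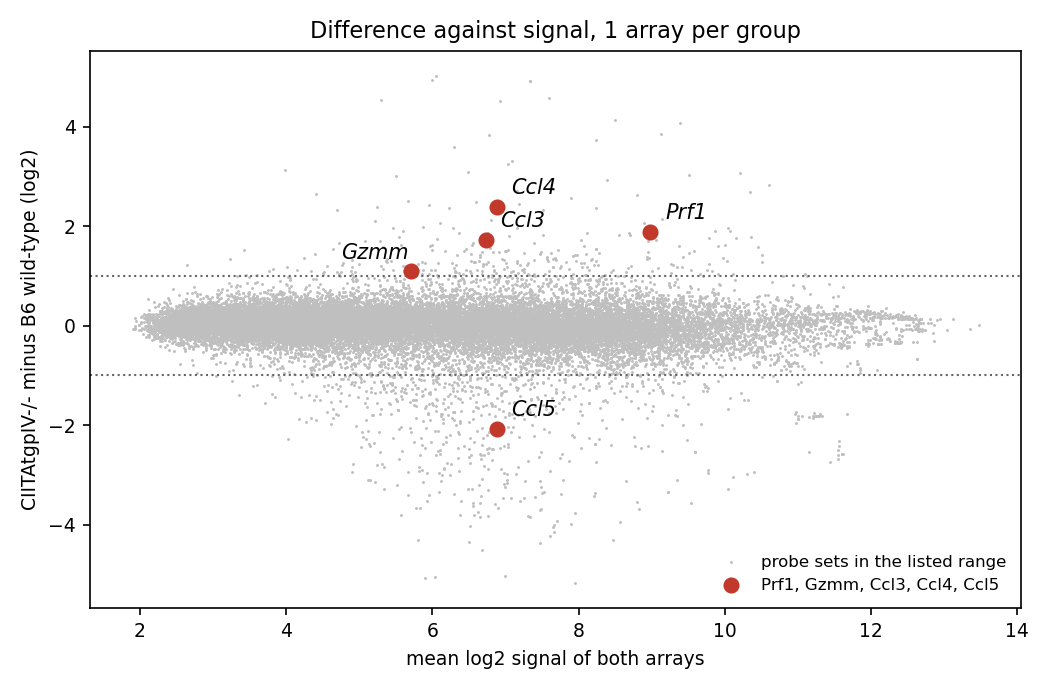
CIITAtgpIV-/- minus B6 wild-type difference of log2 signal (vertical axis) against the mean log2 signal of both arrays (horizontal axis) for the 28560 probe sets in the listed range (grey) and the 5 genes (red, named), with dotted lines at 2-fold. Ccl4, Prf1 and Ccl3 lie well above the upper line, Gzmm lies on its edge at 1.09, and Ccl5 lies below the lower line at -2.07.

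Set against each other within the arrays, the differences of Ccl4 and Ccl5 were 4.47 apart on the log2 scale, so the ratio of Ccl4 to Ccl5 signal was 22.1-fold higher in CIITAtgpIV-/-. The corresponding gap between Ccl3 and Ccl5 was 3.80, and that between Prf1 and Ccl5 was 3.96. Any factor that scales a whole array leaves these gaps as they are. Prf1 and Ccl3 differed least in their shift, by 0.16, and the difference of Ccl3 minus that of Ccl4 was -0.66. With 1 array per genotype, the error of such a gap is not known.

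The 3 chemokine genes are neighbours on chromosome 11. In the coordinates of the authors' deposited table, whose build is not named, 13230 bases separate Ccl3 from Ccl4, which run in opposite directions, and 117326 bases separate Ccl5 from Ccl3. Probe set identifiers follow position along a strand in 959 of 960 adjacent listed pairs, so unlisted probe sets with identifiers between those of Ccl5 and Ccl3 can be placed between them, although the files used here give them no gene name. There were 3 such probe sets, with differences from -0.71 to 0.23. None passed 2-fold, but only 1 of the 3 was past the floor. Among the 3 probe sets on each side of this stretch and of Ccl4, 12 in all, differences ran from -0.71 to 0.29 and none passed 2-fold, with 4 of the 12 past the floor.

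**Figure D3:**
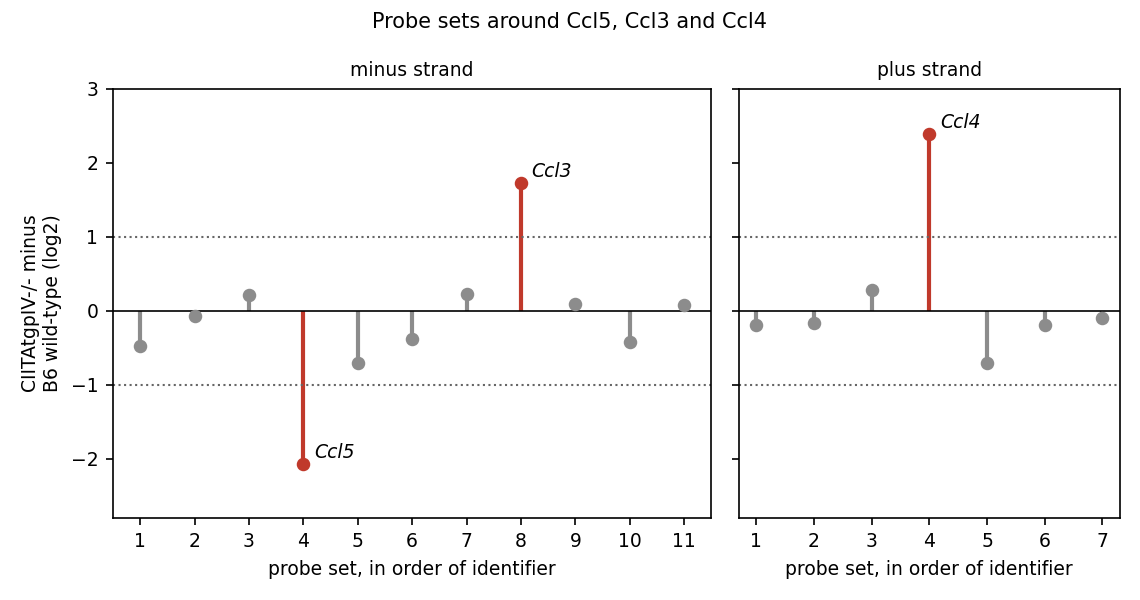
CIITAtgpIV-/- minus B6 wild-type difference (log2, vertical axis) of probe sets in order of identifier (horizontal axis, not to genomic scale) around Ccl5 and Ccl3 on the minus strand (left) and around Ccl4 on the plus strand (right), with dotted lines at 2-fold. Red marks the 3 chemokine genes and grey marks unlisted probe sets, which all lie within 2-fold, between -0.71 and 0.29.

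Of 15 genes for granule contents, Prf1 and Gzmm were the listed ones and both were higher. The other 13, Gzma, Gzmb, Gzmk and the proteoglycan gene Srgn among them, were not listed. An unlisted gene differed by less than 2-fold if its probe sets lie in the listed range and are not among the 71 listed ones without a symbol, and its level has no name to be read by. Of 10 genes for granule release, Lyst was listed, the lysosomal trafficking regulator that controls the size of lysosomes and cytotoxic granules. Lyst had a log2 signal of 10.2 in the CIITAtgpIV-/- array, against 8.07 in the B6 wild-type array, and was 4.40-fold higher. Of 6 granzyme inhibitors, Serpinb9, which blocks granzyme B and shields the killer cell, was listed at 6.37 in CIITAtgpIV-/- and 5.34 in B6 wild type, with the wild-type signal below the floor. Its difference of 1.03 came below 2-fold under each of the other normalizations.

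Among 8 death ligands and effector cytokines, both listed genes were death ligands and both were higher. Fasl, the ligand of the death receptor Fas, had a log2 signal of 6.45 in the CIITAtgpIV-/- array and 4.49 in the B6 wild-type array, below the floor. Tnfsf10, which encodes TRAIL, had 8.87 in CIITAtgpIV-/- and 7.65 in B6 wild type, a 2.33-fold difference. Ifng and Tnf were not listed.

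Ccl3, Ccl4 and Ccl5 were the listed genes of 20 CC chemokines, with 2 higher and 1 lower. None of 12 chemokines of other classes, Xcl1 and Cxcl10 among them, was listed.

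Of 15 transcription factors tied to cytotoxic genes, 3 were listed. Eomes, a T-box factor that acts on the perforin gene, had 11.1 in the CIITAtgpIV-/- array and 7.20 in the B6 wild-type array, a difference of 3.86. Stat4, which carries the signal of IL-12, had 11.2 in CIITAtgpIV-/- and 9.47 in B6 wild type, a difference of 1.77. Mybl1 had a difference of -1.22, with both signals below the floor. Tbx21, Runx3 and Klf13, a factor known for driving CCL5 expression in T cells, were not listed. Without Prf1, Gzmm, Ccl3, Ccl4 and Ccl5, which the selection put on them, the lists for granules, death ligands, chemokines, transcription factors and inhibitors hold 81 genes. Of these 6 were listed as higher past the floor, Lyst, Fasl, Tnfsf10, Eomes, Stat4 and Serpinb9, and 0 as lower. Fasl and Serpinb9 passed the floor only through the CIITAtgpIV-/- array, where they are higher. With no floor, Mybl1 was listed as lower as well. Over all probe sets in the listed range, with no floor, 0.977% were at least 2-fold higher and 2.54% at least 2-fold lower. Among probe sets past the floor, 1.78% were at least 2-fold higher and 4.78% at least 2-fold lower. How many of the 81 genes pass the floor is unknown, so the past-floor shares cannot be set against the past-floor counts. These lists were drawn up with earlier results of the series known, so the counts are a description.

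**Figure D4:**
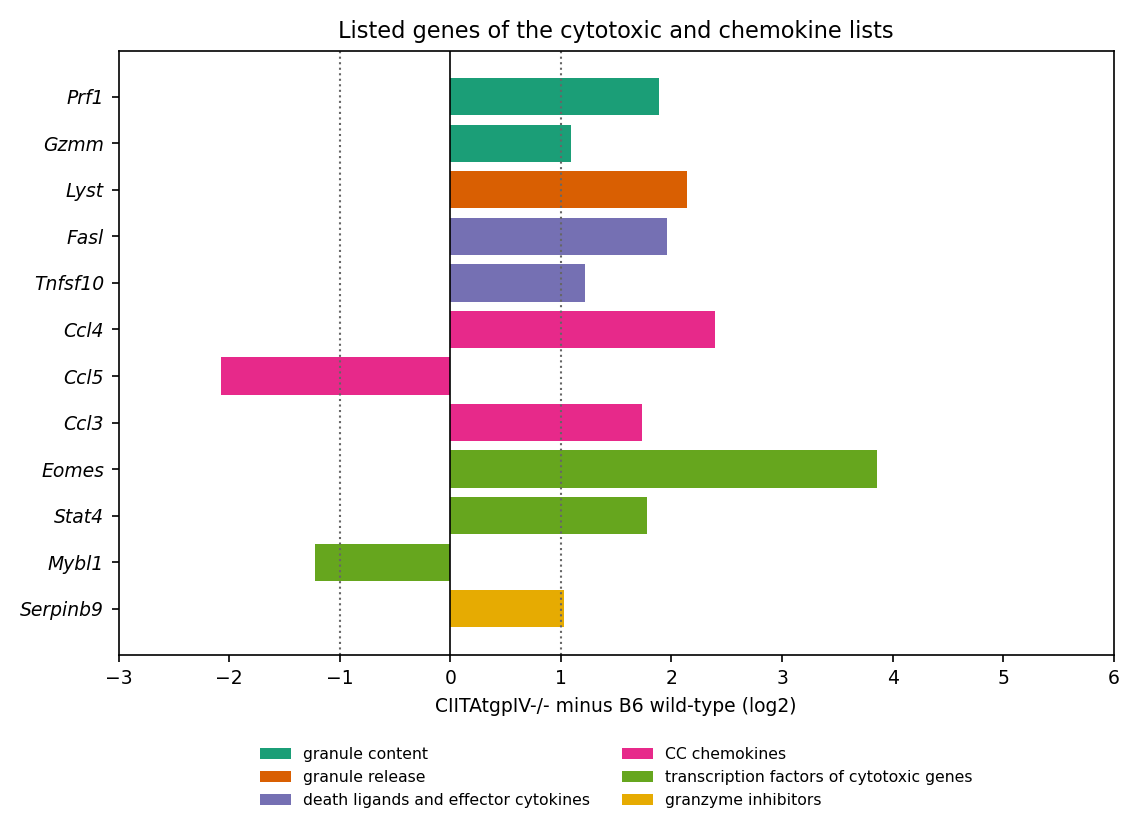
CIITAtgpIV-/- minus B6 wild-type difference of log2 signal (horizontal axis) for the 12 listed genes of the lists on granules, death ligands, chemokines, transcription factors and inhibitors, coloured by list, with dotted lines at 2-fold. Ccl5 and Mybl1 are the bars to the left of 0, and Eomes has the longest bar at 3.86.

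By size of difference over the 2 arrays, the listed genes nearest to Prf1 were Dmrta1 at 1.90 and Sidt1 at 1.90. Those nearest to Gzmm were Snord38a and Arhgap26, both at 1.09. Rnf19b and Kcnc1, both at 1.73, were nearest to Ccl3, and Cxcr5 at 2.38 and Antxr2 at 2.37 to Ccl4. Those nearest to Ccl5 were Dlgap5 at -2.08, which encodes a mitotic spindle protein, and Bard1 at -2.06, the partner of BRCA1.

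Markers of other cells differed between the same arrays. None of 12 NK cell markers was listed, and none of 7 CD8 T cell markers was, so the labelled cell type could not be checked against levels of Cd8a or Cd3e. The 12 NK cell markers include no gene of the Ly49 (Klra) receptor family, so nothing is said of that family here. Of 10 markers of immature double-positive thymocytes, 9 were listed, each of them lower in CIITAtgpIV-/-, with a median difference of -4.36, and their summed linear signal was 257 in CIITAtgpIV-/- and 4378 in B6 wild type. Of 14 myeloid and dendritic markers, 4 were listed and all 4 were lower, with summed linear signals of 597 in CIITAtgpIV-/- and 1461 in B6 wild type. Most of both sums is Cst3, which many cell types express, at 559 in CIITAtgpIV-/- and 1268 in B6 wild type, a 2.27-fold difference. Lyz2, the lysozyme gene of macrophages, was 7.66-fold lower and Mpeg1, a macrophage gene for a pore-forming protein, 5.36-fold lower, while both signals of Itgax were below the floor. Of 10 red cell markers, 4 globin genes were listed and lower, with summed signals of 144 in CIITAtgpIV-/- and 1435 in B6 wild type, and of 10 B cell markers Jchain was lower with both signals below the floor. These sums leave out unlisted markers. Each listed marker in them is at least 2-fold lower, so sums at least 2-fold lower follow from the listing. No granulocyte, CD4 lineage or gamma delta T cell marker was listed. Of all listed genes, 72.7% were lower in CIITAtgpIV-/-. The part of these cells in the differences of Ccl5 and of the 4 higher genes was not tested.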

How the data were processed

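For 35556 probe sets the authors deposited a log2 signal in each of 2 arrays, 1 per genotype. GCOS and RMA are named in the submitters' processing notes, and the design text names Expression Console 1.1 and affy 2.9.2, with selection at 2-fold and at 10% false discovery. No source used here gives the array type or genome build. Their second table gives a log2 ratio for 1003 probe sets, with no false discovery rate. Each ratio matched the value table, as CIITAtgpIV-/- minus B6 wild-type, to within 0.001. Its signal columns were not used.

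Of the listed probe sets, 932 carry a symbol and 71 carry none. Symbols were updated through RefSeq (GRCm38.p6) by accession for 779 probe sets, and otherwise by symbol or synonym. The probe set with the highest mean signal stood for a gene. Differences of log2 signal were computed with Python 3.11.15, pandas 2.3.3 and statsmodels 0.14.6 (loess span 0.3). The code was run on simulated arrays whose changes lay well past 2-fold. That run does not cover differences near the threshold, such as that of Gzmm. There was no test, since each group has 1 array. The genes named are the 5 members, up to 6 listed genes per list with the largest difference, and the 2 listed genes nearest in difference to each member. The nearest genes were taken past the floor, without the members and unnamed gene models. The members and lists were chosen with earlier results of these data known. One gene list of the design is not reported here.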

Additional observations from a re-analysis of the deposited data

How the results depend on the processing

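All 15 values of the 5 differences under loess, quantile normalization and median centring kept their direction and moved by at most 0.093 on the log2 scale. Because the genes were selected at 2-fold, this is a weak check. Averaging over probe sets could not move them, since each gene has 1 probe set. Gzmm under median centring, at 0.99, was the value that came under 2-fold, which left 3 higher members, and 3-fold or a floor at the 75th percentile also left 3. Of 114 alternative counts, 97 stayed within 1.5 times and 17 did not. Many of the 97 are counts of 0 that stayed at 0. The list counts also hold only genes already listed at 2-fold, so the 97 say little about stability. In the listed range 254 probe sets were higher and 683 lower past the floor. These became 738 and 1424 at 1.5-fold, 85 and 341 at 3-fold, and 160 and 422 with the floor at the 75th percentile. For granule contents 1 higher gene was left in place of 2 at 3-fold, with median centring and with the floor at the 75th percentile. For death ligands 1 was left in place of 2 at 3-fold and at that floor. For granzyme inhibitors 0 were left in place of 1 at 3-fold, at that floor, and with median centring, quantile normalization and loess. With no floor, 1 transcription factor was lower in place of 0, because Mybl1 entered. The genes annotated to chemokine activity, an alternative chosen after seeing the data, were the same 3. No paired analysis was possible because there is 1 array per genotype, and no array could be left out for the same reason. List counts at 1.5-fold were not run, since probe sets under 2-fold carry no gene name. The B6 wild-type signals of Gzmm, Fasl and Serpinb9 lie below the floor, and no other background correction was run, so signal over background limits these folds.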

Other observations

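The genes in this paragraph were picked after their values were seen. In the ontology terms of the authors' deposited table, 8 listed genes carry the term cytokine activity, of which 7 were higher in CIITAtgpIV-/- and Ccl5 was lower, where 216 of all 791 listed genes were higher. The 8 include Ccl3, Ccl4 and Ccl5, which were selected on this contrast, and Fasl and Tnfsf10, which are described above. Nothing is read from the count beside that share. Besides cytokine activity, only chemokine activity, cytolysis and chemotaxis were counted. Each of these was mixed, and of them chemotaxis had more lower than higher genes. With the term chemokine activity, Ccl3 and Ccl4 were higher and Ccl5 was lower. Of 5 listed genes with the term chemotaxis, Ccl3 and Ccl4 were higher and Ccl5, Kit and Ccr8 were lower, with a median difference of -1.47, and of 3 with the term cytolysis, Prf1 and Gzmm were higher and Lyz2 was lower. Beside the genes described above, those with the term cytokine activity are Tnfsf8, the CD30 ligand, with log2 signals of 8.23 in CIITAtgpIV-/- and 6.94 in B6 wild type, Ifnz with 6.85 in CIITAtgpIV-/- and 5.75 in B6 wild type, and Gdf11 with 7.20 in CIITAtgpIV-/- and 6.17 in B6 wild type. The listed gene nearest to Gzmm in position is another serine protease gene, Prss57 (Prssl1 in the authors' deposited table), 86.2 kb away on the other strand. Its log2 signal was 3.94 in CIITAtgpIV-/- and 5.96 in B6 wild type, a difference of -2.02, while Gzmm differed by 1.09. The listed gene nearest to Prf1 lies 1306 kb away.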
